A study of Mus musculus with 10 samples.

Results

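The quantity described here is how far the response of microglia to cuprizone differed between Trem2-/- and WT mice. For each gene it is the mean of the 4- and 12-week cuprizone libraries minus the control in Trem2-/- cells, minus the same difference in WT cells, on the log2 intensity scale. It is called the interaction below, and a negative value means that the level on cuprizone, relative to control, was lower in Trem2-/- than in WT microglia. It rests on 6 of the 10 microarray libraries of the series, 3 per genotype: 1 control, 1 library of 4 weeks and 1 of 12 weeks on a diet with 0.2% cuprizone. The other 4 libraries came from mice returned to normal food for 2 weeks, and they entered the estimate of the spread. The libraries were of microglia isolated by flow cytometry from male mice, either Trem2-/- or WT, with C57BL/6 given as the strain for both. The labels give an age of 8 to 12 weeks for every library, also those fed cuprizone for 12 weeks. They do not say at which point this age was taken. The age at isolation, and how the controls compare in age with the 12-week libraries, is therefore unknown here. The labels do not say how many animals made a library, whether they were pooled or littermates, or which markers were used in the sort.

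Microglia are the macrophages that live in brain tissue. TREM2 is a receptor on their surface that binds lipids and lipoproteins and signals through the adaptor TYROBP (DAP12) and the kinase SYK. Cuprizone is a copper chelator whose feeding kills oligodendrocytes and leaves myelin debris, which microglia engulf and whose cholesterol they must store or export. In mouse models of plaques and of myelin damage, microglia lower their resting ("homeostatic") genes and raise a set called disease-associated, and much of that set is known to depend on TREM2.

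The targeted gene matched the labels. Trem2 measured 7.53, 7.78 and 7.47 in the Trem2-/- control, 4-week and 12-week libraries, against 10.72, 10.81 and 10.70 in the WT ones, and its interaction was 0.06 ± 0.41 (SE). The labels do not say which exons the allele lacks, so whether the probe reads the deleted part is unknown here. The 11 markers of microglial identity had a median level of 10.81 to 11.09 in the 3 Trem2-/- libraries and of 10.56 to 11.12 in the 3 WT libraries. The submitters' sample numbers form 2 runs: the controls and the 4-week libraries lie in the first and the 12-week libraries in the second, so feeding time and run cannot be told apart. Each genotype comparison at 1 feeding time lies within 1 run, and an offset shared by both genotypes cancels from the interaction. The Trem2-/- library titled 12 weeks carries a time label and a description of 4 weeks. It is taken by its title, and the values of the 4-week libraries are given beside it.

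Gpnmb, a glycoprotein of lysosomes and of lipid-laden macrophages, had the one interaction that passed the test. In Trem2-/- microglia its log2 level was 4.64 in the control, 4.57 at 4 weeks and 4.52 at 12 weeks, against 3.82 in the control, 8.62 at 4 weeks and 7.99 at 12 weeks in WT microglia. The 3 Trem2-/- libraries and the WT control stayed under the median of the table (5.27), and the 2 WT libraries on cuprizone stood far above it. The cuprizone mean was thus 0.938-fold of control in Trem2-/- and 22.3-fold of control in WT, with an interaction of -4.57 ± 0.43 (limma adjusted p = 0.0451). It was the only call among 10792 genes tested at an adjusted p of 0.05, or 0.00927% of them, with 159 genes at an unadjusted p under 0.05. If no gene differed, a share of 0.05 of the genes tested would be expected there, and 159 is below it. The error of this test comes from how far the 4-week and 12-week libraries of the same group lay apart, since each control is a single array assumed to vary like the others. With feeding time as a block, 9 genes passed, all with negative values (0.0834% of the genes tested). The block leaves every value as it is and takes the shared difference between the times out of the error. With it 500 genes had an unadjusted p under 0.05, also below a share of 0.05 of the genes tested. The call for Gpnmb ended when any 1 of the 8 cuprizone and recovery libraries was left out, except the 12-week WT cuprizone one, with adjusted p-values up to 0.401. In the blocked test it held in 14 of 14 other settings, while the calls of the other 8 genes held in 6 (Fgr) to 11 (Apoc1, Mmp12 and Olr1) of the 14, and in 2 to 5 of the 8 that left out a library.

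The other 8 genes that passed with the block fell into a few roles. Apoc1, Olr1 and Fabp5 handle lipid. Apoc1, an apolipoprotein carried on lipoprotein particles, had the most negative interaction of the genes tested. It measured 4.24, 5.80 and 5.31 in the Trem2-/- control, 4-week and 12-week libraries, against 4.26, 10.83 and 9.79 in WT. The controls were alike, and both cuprizone libraries of Trem2-/- mice stood over 4 log2 units below their WT counterparts (interaction -4.74 ± 0.68, adjusted p = 0.409, with the block 0.04). Olr1, a scavenger receptor for oxidised low-density lipoprotein, measured 3.78, 3.65 and 4.02 in Trem2-/- cells, against 3.92, 7.21 and 7.88 in WT cells. The 3 Trem2-/- values and the WT control are in the range of background, and the WT values on cuprizone are not (interaction -3.57 ± 0.63, adjusted p = 0.488, with the block 0.0107). Fabp5, a cytosolic fatty acid carrier, was measurable throughout. It stood at 6.46, 6.61 and 6.70 in Trem2-/- cells, against 6.05, 9.16 and 8.47 in WT cells (interaction -2.56 ± 0.46, adjusted p = 0.488, with the block 0.0495).

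Axl and Mmp12 act at the cell surface and in the matrix. Axl, a receptor tyrosine kinase that recognises phosphatidylserine on dying cells through its ligand GAS6, measured 5.10, 5.59 and 5.32 in Trem2-/- control, 4-week and 12-week cells, against 5.43, 8.83 and 8.47 in WT cells (interaction -2.86 ± 0.43, adjusted p = 0.409, with the block 0.043). Its ligand Gas6 had an interaction of 0.30 ± 0.53. Mmp12, the macrophage elastase, measured 5.16, 4.83 and 5.02 in Trem2-/- cells, against 4.96, 8.90 and 8.89 in WT cells. The cuprizone mean of Mmp12 was 0.850-fold of control in Trem2-/- and 15.2-fold of control in WT (interaction -4.16 ± 0.72, adjusted p = 0.488, with the block 0.0271).

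Fam20c, Egln3 and Fgr are enzymes. Fam20c, a kinase of the secretory pathway, measured 5.05, 5.06 and 5.23 in Trem2-/- cells, against 4.99, 7.71 and 7.44 in WT cells (interaction -2.49 ± 0.38, adjusted p = 0.409, with the block 0.04). Egln3, a prolyl hydroxylase of hypoxia-inducible factor that is itself induced by it, measured 3.84, 3.69 and 4.21 in Trem2-/- cells, against 3.28, 5.91 and 6.56 in WT cells (interaction -2.85 ± 0.61, adjusted p = 0.857, with the block 0.04). Fgr, a Src-family kinase of myeloid cells, was lower in both Trem2-/- cuprizone libraries than in their control, with differences of -0.54 and -0.68. It measured 5.71, 5.17 and 5.04 in Trem2-/- cells, against 5.18, 6.46 and 6.45 in WT cells (interaction -1.88 ± 0.30, adjusted p = 0.479, with the block 0.0495). The 3 Trem2-/- values lay below the median of the table in 5 of the 9 genes, and the WT control did in 7 of 9. Intensity near that median is close to background and the files hold no detection calls, so the size of such differences is uncertain. When the Trem2-/- library titled 12 weeks was taken as 4 weeks instead, the blocked test called 1 gene.

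**Figure D1:**
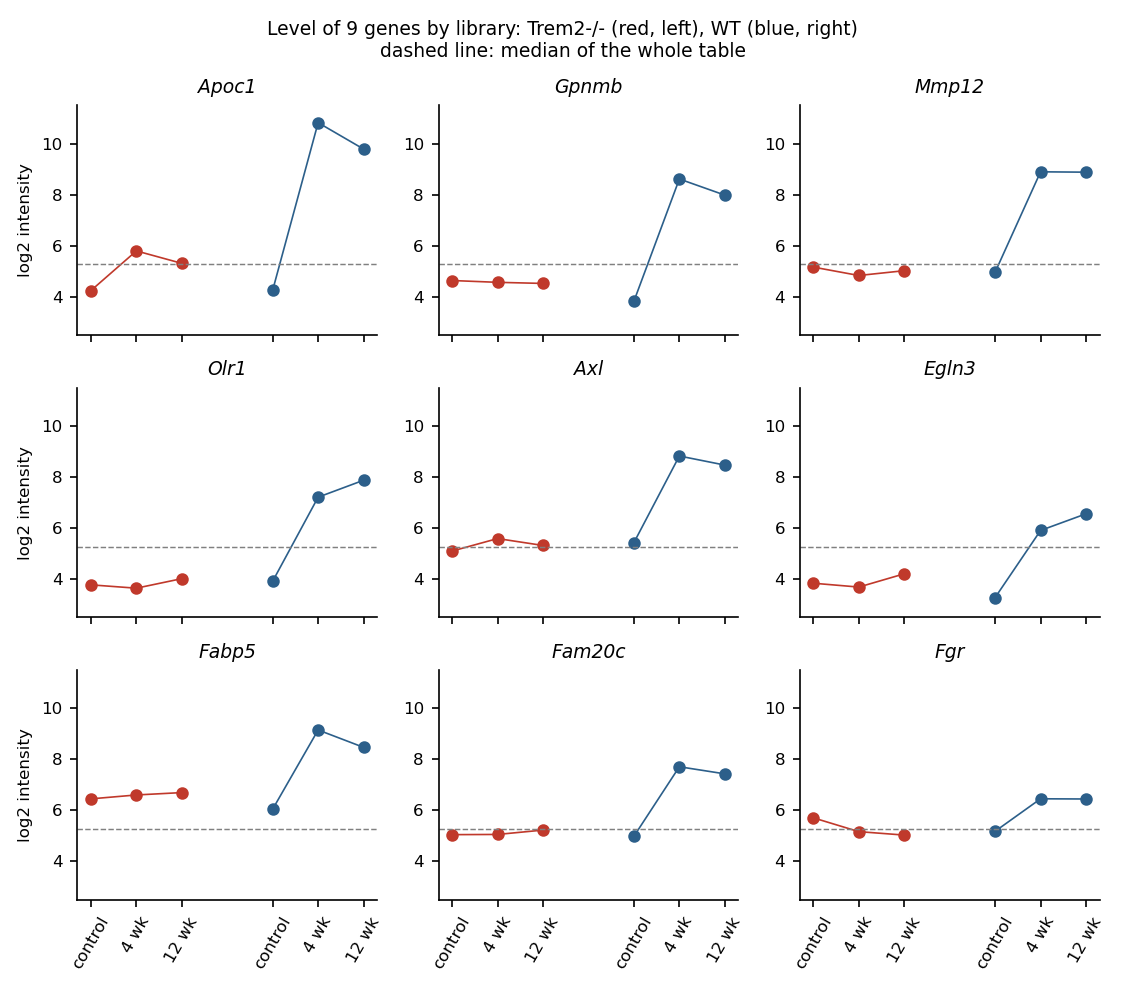
Log2 intensity (y axis) of the 9 genes called with or without the feeding-time block, in the control, 4-week and 12-week library of Trem2-/- (red, left) and WT (blue, right) mice, 1 point per library. In each panel the WT points on cuprizone stand apart from the WT control, and the Trem2-/- points stay near or below the table's median of 5.27 (dashed) except for Fabp5, at 6.46 to 6.70.

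Promoter sequence was available for 7 of the 9 genes (RefSeq, GRCm38.p6, 250 bases before to 50 after the annotated start), in 8 windows. Those of Gpnmb (chr6:49036268-49036567, plus strand), Olr1 (chr6:129507116-129507415, minus strand), Mmp12, which has 2 annotated starts (chr9:7344147-7344446 and chr9:7347124-7347423, plus strand), Egln3 (chr12:54203825-54204124, minus strand) and Fam20c (chr5:138754831-138755130, plus strand) are shown because these are the 5 genes whose Trem2-/- values all lay below the table's median while the WT values on cuprizone lay above it. Capitals mark matches, on either strand, to the AP-1 motif TGANTCA or to the ETS core GGAAGT, which the macrophage factor PU.1 binds.
Gpnmb: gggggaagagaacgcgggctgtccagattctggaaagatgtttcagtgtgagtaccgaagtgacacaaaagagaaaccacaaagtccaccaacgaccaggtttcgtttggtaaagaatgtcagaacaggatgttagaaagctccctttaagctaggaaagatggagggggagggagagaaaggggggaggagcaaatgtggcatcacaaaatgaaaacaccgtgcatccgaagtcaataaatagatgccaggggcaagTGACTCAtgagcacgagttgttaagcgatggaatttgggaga
Olr1: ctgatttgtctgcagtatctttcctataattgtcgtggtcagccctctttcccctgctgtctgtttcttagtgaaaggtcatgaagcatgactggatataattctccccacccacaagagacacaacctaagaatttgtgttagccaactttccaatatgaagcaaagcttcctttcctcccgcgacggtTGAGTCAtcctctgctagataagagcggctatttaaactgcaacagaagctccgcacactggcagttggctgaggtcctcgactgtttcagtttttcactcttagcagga
Mmp12, first start: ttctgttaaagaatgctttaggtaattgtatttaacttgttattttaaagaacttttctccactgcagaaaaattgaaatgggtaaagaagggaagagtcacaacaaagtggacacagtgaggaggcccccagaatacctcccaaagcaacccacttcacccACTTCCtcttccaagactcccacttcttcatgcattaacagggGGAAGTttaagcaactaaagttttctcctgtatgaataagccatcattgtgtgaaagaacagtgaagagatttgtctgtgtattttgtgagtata
Mmp12, second start: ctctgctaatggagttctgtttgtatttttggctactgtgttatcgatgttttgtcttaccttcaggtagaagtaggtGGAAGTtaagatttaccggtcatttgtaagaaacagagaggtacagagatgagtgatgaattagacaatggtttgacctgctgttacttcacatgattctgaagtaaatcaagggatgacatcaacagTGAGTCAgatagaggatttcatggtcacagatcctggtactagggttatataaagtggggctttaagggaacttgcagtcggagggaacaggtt
Egln3: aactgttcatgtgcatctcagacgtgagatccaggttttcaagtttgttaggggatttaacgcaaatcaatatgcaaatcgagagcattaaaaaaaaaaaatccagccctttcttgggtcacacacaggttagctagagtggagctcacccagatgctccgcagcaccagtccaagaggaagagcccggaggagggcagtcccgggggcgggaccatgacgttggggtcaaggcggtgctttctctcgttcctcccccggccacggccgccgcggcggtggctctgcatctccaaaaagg
Fam20c: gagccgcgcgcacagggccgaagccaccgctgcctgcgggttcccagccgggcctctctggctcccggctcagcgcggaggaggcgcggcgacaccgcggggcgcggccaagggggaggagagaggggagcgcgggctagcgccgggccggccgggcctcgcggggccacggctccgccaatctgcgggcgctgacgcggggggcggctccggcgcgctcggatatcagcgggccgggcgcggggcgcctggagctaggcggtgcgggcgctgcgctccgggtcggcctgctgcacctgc
The AP-1 letters occurred in 3 of the 8 windows (Gpnmb, Olr1 and the second start of Mmp12), and 7.81% of all 32851 promoters in the table held them. The ETS core occurred in 3 of 8 (both starts of Mmp12, and Fgr), against 23.8% of all promoters. The E-box core CACGTG, which MiT/TFE factors bind, occurred in 0 of 8, against 7.15% of all promoters. With 8 windows a share of that size can easily give 0. No other sequence was searched for these factors, so the windows cannot be said to lack sites for them. The windows of Egln3, Fam20c and Axl held none of the 3 motifs. These matches describe letters and are not evidence of binding.

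Over all genes the interaction had no common direction. Of the 10792 genes tested, 5376 (49.8%) had a negative value, the median was 0.00 and the SD over genes was 0.38. The tails were unequal in the 4-week and control libraries of the first run, where 180 genes (1.67%) lay below -1 and 44 (0.408%) above 1. In the 12-week libraries, against the same controls, 210 genes (1.95%) lay below -1 and 126 (1.17%) above 1. At both times 101 genes (0.936%) lay below -1 and 9 (0.0834%) above 1. Because both times use the same 2 control arrays, a gene whose control values happened to differ has a shifted interaction at both. The response itself varied more over genes in WT, with an SD of 0.41, than in Trem2-/-, with 0.28.

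**Figure D2:**
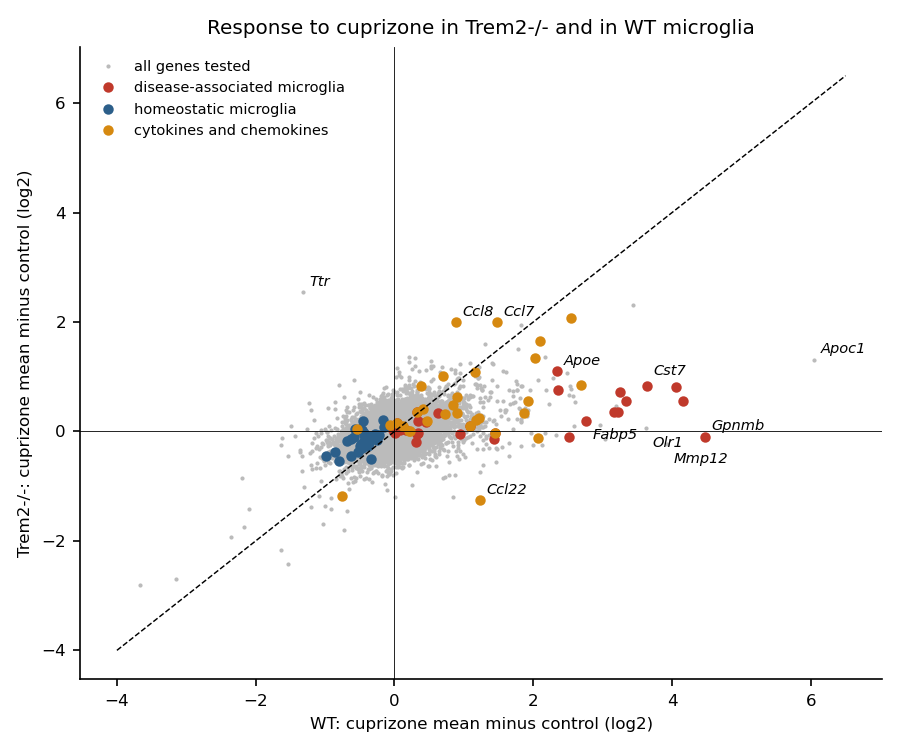
Cuprizone mean minus control (log2) in WT (x axis) and Trem2-/- (y axis) microglia, 1 grey point per gene tested, with 3 gene lists coloured and equal responses on the dashed line. Disease-associated genes spread further along the x axis (median 1.08, 28 of 29 above 0) than along the y axis (median 0.15, 20 of 29 above 0). Homeostatic genes lie just above the line to the left of 0, and the chemokine genes Ccl7 and Ccl8 lie above the line.

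Among genes measured well above background in at least 1 library and with the same sign at both times, the 10 most negative interactions belonged to 6 of the genes above (Apoc1, Gpnmb, Mmp12, Olr1, Axl and Egln3) and to Ch25h, Lpl, Postn and Cst7, which did not pass. Ch25h, which makes 25-hydroxycholesterol, measured 4.47, 4.68 and 5.39 in Trem2-/- control, 4-week and 12-week cells, against 4.26, 8.61 and 8.22 in WT cells. Its interaction was -3.60 ± 1.16, with -4.15 at 4 weeks and -3.05 at 12 weeks (adjusted p = 1). Lpl, the lipase that frees fatty acids from lipoproteins, measured 4.75, 5.57 and 5.53 in Trem2-/- cells, against 5.49, 9.86 and 9.24 in WT cells. Its controls differed by -0.75 with Trem2-/- the lower, so the distance between the genotypes on cuprizone, -4.28 and -3.71, was wider than the interaction of -3.25 ± 0.63 (adjusted p = 0.614, with the block 0.116). Cst7, cystatin F, an inhibitor of lysosomal cathepsins, was the brightest of these genes. It measured 6.37, 7.76 and 6.66 in Trem2-/- cells, against 6.81, 10.98 and 9.92 in WT cells, an interaction of -2.81 ± 0.73 (adjusted p = 1, with the block 0.0792). Its Trem2-/- library at 4 weeks stood 1.38 above the control, and the 12-week library 0.28 above it. Postn, a secreted matrix protein, had an interaction of -3.17 ± 0.62, with Trem2-/- levels of 4.37 to 5.14 and WT levels of 4.64 in the control, 7.87 at 4 weeks and 7.46 at 12 weeks (adjusted p = 0.614, with the block 0.129).

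**Figure D3:**
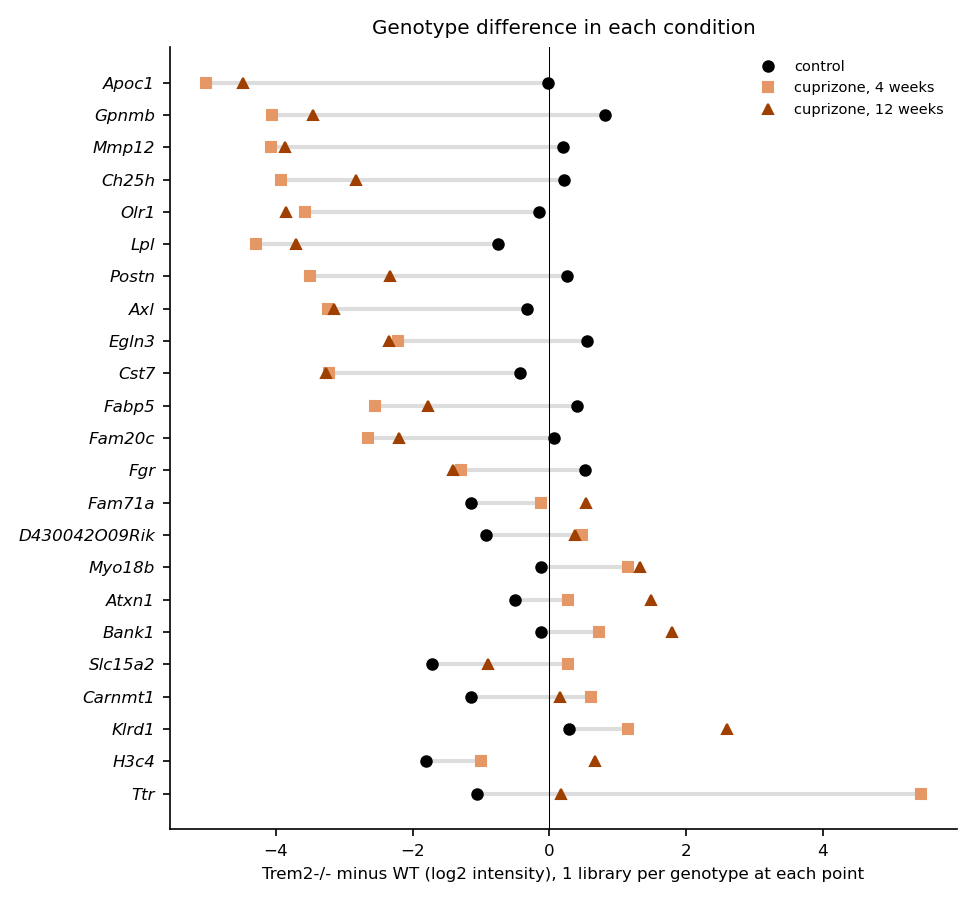
Trem2-/- minus WT difference in log2 intensity (x axis) in the control libraries (circles), at 4 weeks (squares) and at 12 weeks (triangles) of cuprizone for the 9 called genes and the 10 most negative and 10 most positive interactions. For the 13 genes at the top the control difference lies within 0.81 of 0 and both cuprizone differences lie at -1.29 or lower. Among the 10 genes at the bottom, 7 have a control difference of -0.50 to -1.80, so part of their interaction comes from the control pair.

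The same genotype difference can be set against the recovery libraries in place of the controls, which uses no control array. The 9 genes were lower in that comparison too (9 of 9), and none passed. Over all genes 0 were called by limma, 161 having an unadjusted p under 0.05, and 0 with the block, where 555 did. Of these counts 161 is below and 555 close to a share of 0.05 of the genes tested. For Gpnmb the genotype difference was -4.05 and -3.46 on cuprizone and -1.59 and -1.75 after recovery, a change of -2.09 ± 0.35 (adjusted p = 1, with the block 0.056). For Cst7 it was -3.22 and -3.26 on cuprizone, against -0.33 and -0.01 after recovery (-3.07 ± 0.60, with the block 0.056). The genotypes' Cst7 levels were thus far apart in both pairs on cuprizone and close in both pairs after recovery. Olr1 kept more of its distance, at -3.57 and -3.86 on cuprizone against -1.79 and -2.60 after recovery. The 2 comparisons share the cuprizone libraries and are not independent.

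Disease-associated genes had the most negative median of the gene lists. Of 29 members tested, 25 had a negative interaction, against 49.8% of all genes, with a median of -0.99. The median cuprizone response was 0.15 in Trem2-/- and 1.08 in WT. Gpnmb passed, and Axl and Fabp5 passed with the block. At both feeding times 12 of 29 lay below -1, against 0.936% of all genes. The list divides into genes with a large WT response and genes that responded little in either genotype. Clec7a, the beta-glucan receptor dectin-1, measured 5.70, 6.23 and 5.89 in Trem2-/- cells, against 6.24, 9.40 and 9.40 in WT cells (interaction -2.80 ± 0.53). Itgax, the integrin CD11c, measured 4.49, 5.18 and 4.93 in Trem2-/- cells, against 5.20, 8.88 and 8.18 in WT cells (-2.77 ± 0.47). Igf1, a growth factor for oligodendrocytes, measured 5.004, 6.37 and 5.07 in Trem2-/- cells, against 5.46, 8.91 and 8.51 in WT cells (-2.53 ± 0.66). These 3 genes did not pass, although no Trem2-/- library reached its WT counterpart on cuprizone.

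Apoe, the main apolipoprotein of the brain, kept a partial response. It was picked out after its values were seen, at 10.36, 11.79 and 11.14 in Trem2-/- cells, against 10.62, 12.997 and 12.92 in WT cells. The response was 1.11 in Trem2-/- and 2.34 in WT (interaction -1.24 ± 0.41, not called). At the other end, Tyrobp, the adaptor of TREM2, measured 12.48 to 12.62 in Trem2-/- and 12.57 to 12.65 in WT libraries, with an interaction of -0.04 ± 0.31. The chemokine Ccl4 had 0.04 ± 0.38. The lysosomal protease Ctsd had 0.05 ± 0.30 at a level above 12.

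Homeostatic genes lay on the other side of 0 by small amounts. Of 29 members tested, 28 had a positive interaction and 1 a negative one, while 49.8% of all genes were negative, with a median of 0.25, and none was called. The median cuprizone response was -0.16 in Trem2-/- and -0.46 in WT. P2ry12, the purinergic receptor that steers microglial processes, measured 11.26, 11.37 and 11.24 in Trem2-/- cells, against 11.46, 10.997 and 10.77 in WT cells (interaction 0.62 ± 0.32). Gpr34, a lysophospholipid receptor, had 0.65 ± 0.30, with a response of 0.20 in Trem2-/- and -0.45 in WT. Slc2a5, a fructose transporter, had -0.44 in Trem2-/- and -0.98 in WT. No member had an interaction beyond 1 at either time. The median ran from 0.12 to 0.43 in 18 other settings and stayed positive in each, but some, such as the block, cannot move it. It was 0.43 without the 4-week WT or the 12-week Trem2-/- library and 0.16 without the 4-week Trem2-/- library, where 6 of 29 were negative.

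**Figure D4:**
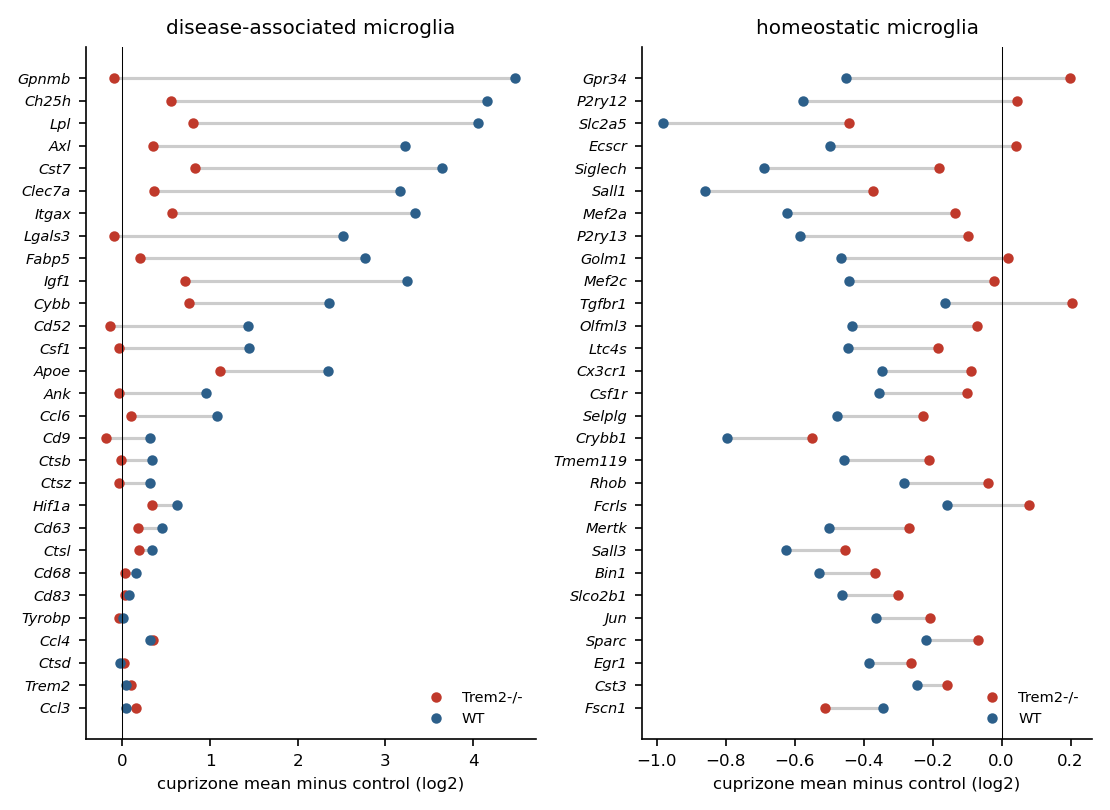
Cuprizone mean minus control (log2, x axis) for each tested disease-associated (left) and homeostatic (right) gene, red for Trem2-/- and blue for WT, sorted by the distance between them. The x axes differ in scale: disease-associated genes in WT reach 4.48 (Gpnmb), while homeostatic genes in WT lie between -0.98 (Slc2a5) and -0.16.

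Lipid handling genes included the largest interactions and many near 0. Of 24 tested, 18 had negative values, with a median of -0.39, and 3 passed with the block (Apoc1, Olr1 and Fabp5), against 0.0834% of all genes. At both times 7 of 24 lay below -1, against 0.936% of all genes. The median was -0.64 without the 12-week WT library. Apoc4, which lies in the same gene cluster as Apoc1 and Apoe, measured 6.51, 5.83 and 5.72 in Trem2-/- cells, against 6.34, 7.54 and 7.62 in WT cells (interaction -1.97 ± 0.40, not called). Plin2, the coat protein of lipid droplets, had a response of 0.52 in Trem2-/- and 1.70 in WT (-1.18 ± 0.47). Abca1, which exports cholesterol, had -0.03 in Trem2-/- and 0.38 in WT (-0.41 ± 0.43). Cd36, a scavenger receptor and fatty acid transporter, had a similar response in both genotypes. It measured 5.17, 6.79 and 6.06 in Trem2-/- cells, against 5.18, 7.15 and 6.01 in WT cells, an interaction of -0.15 ± 0.75 whose error leaves room for a difference in either direction. Plin2, Abca1 and Cd36 were chosen after their values were seen.

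Genes that make or burn lipid differed little. Of 19 cholesterol synthesis genes tested 13 had negative values, with a median of -0.21 and 0 called, led by Hsd17b7 (-0.88 ± 0.37) and Sc5d (-0.77 ± 0.40). Both had a higher control level in Trem2-/- than in WT, by 0.94 and 0.52. Of 18 fatty acid oxidation genes 11 were negative (median -0.15, 0 called). Echs1, a hydratase of that pathway, measured 6.99, 7.55 and 6.68 in Trem2-/- cells, against 6.998, 8.04 and 7.85 in WT cells (-0.82 ± 0.52). No gene of either list lay beyond 1 at both times. The fatty acid oxidation median was -0.09 without the 4-week Trem2-/- library and -0.01 without the 12-week WT library.

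Lysosomal genes lay close to 0, apart from 1 subunit of the proton pump. Of 35 lysosomal hydrolases and membrane proteins 25 were negative and 10 positive, with a median of -0.19, a range from -0.56 to 0.28 and 0 called. The median was -0.05 without the 4-week WT library (20 of 35 negative) and -0.03 without the 12-week Trem2-/- library, against -0.31 without the 4-week Trem2-/- library and -0.30 without the 12-week WT library. Gaa, acid alpha-glucosidase, had -0.56 ± 0.43, and Grn, progranulin, had -0.04 ± 0.32. Of 17 subunits of the vacuolar proton pump, which acidifies lysosomes, 13 were negative (median -0.17, and -0.34 to -0.31 without the 12-week WT or either Trem2-/- library). Atp6v0d2, a macrophage and osteoclast form of the d subunit, stood apart at -2.72 ± 0.71. It measured 3.71, 4.18 and 4.17 in Trem2-/- cells, against 3.94, 7.001 and 7.26 in WT cells (not called). Its broadly expressed counterpart Atp6v0d1 measured 7.93, 7.72 and 7.55 in Trem2-/- cells, against 7.46, 7.74 and 7.54 in WT cells. On cuprizone Atp6v0d1 was thus alike in the genotypes, and its interaction of -0.48 ± 0.46 matched a control difference of 0.48. The MiT/TFE factors that drive lysosomal genes had -0.11 ± 0.36 (Mitf), -0.15 ± 0.32 (Tfeb) and 0.18 ± 0.34 (Tfe3). Of 25 autophagy genes 17 were negative (median -0.08, 0 called; 0.07 without the 4-week WT, -0.03 without the 4-week Trem2-/- and -0.16 without the 12-week WT library), with Sqstm1 at -0.49 ± 0.72.

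Surface receptors split by gene. The median of 22 phagocytic and debris receptors was -0.03, with 12 negative values, and the sign of this median changed in 3 of 18 other settings (0.13 without the 4-week WT library and -0.19 without the 12-week WT library, its range being -0.23 to 0.13). Olr1 and Axl passed with the block, 2 of 22 against 0.0834% of all genes, and Clec7a is described above. The remaining members were closer to 0. Msr1, scavenger receptor A, had a response of 0.84 in Trem2-/- and 1.28 in WT (interaction -0.45 ± 0.81). Mrc1, the mannose receptor, had 1.09 in Trem2-/- and 0.66 in WT (0.43 ± 1.03). Of 12 integrins 6 were negative (median 0.01, a sign that changed in 3 of 18 other settings), with Itgax at one end and Itgb3, at 0.58 ± 0.33, at the other. TREM2's signalling partners had a median of 0.06 over 17 genes, with Lat2 at -0.55 ± 0.32 and Pik3cg at 0.42 ± 0.38, and 0 called. That sign too changed in 3 of 18 settings, with a median of 0.25 without the 4-week WT library and -0.07 without the 4-week Trem2-/- library.

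Galectins, sugar-binding proteins, divided within the family. Lgals3, galectin-3, measured 6.68, 6.88 and 6.30 in Trem2-/- cells, against 6.75, 9.35 and 9.18 in WT cells, an interaction of -2.60 ± 0.46 (not called). Lgals1, galectin-1, measured 7.12, 8.80 and 7.96 in Trem2-/- cells, against 7.80, 9.14 and 8.65 in WT cells. Its response was 1.26 in Trem2-/- and 1.09 in WT (0.16 ± 0.52). Lgals3 was thus flat in Trem2-/- cells while Lgals1 was higher on cuprizone in both genotypes. Lgals3bp, a secreted partner of galectin-3, had -0.09 in Trem2-/- and 1.40 in WT (-1.49 ± 0.69). Lgals8 and Lgals9 had 0.35 ± 0.36 and 0.20 ± 0.61.

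Matrix proteases beyond Mmp12 included Mmp14, the membrane-bound collagenase. It measured 6.97, 6.46 and 6.67 in Trem2-/- cells, against 6.15, 7.13 and 7.14 in WT cells. Its interaction of -1.39 ± 0.34 includes a control difference of 0.82 with Trem2-/- the higher (not called). Of 14 members tested 7 were negative (median -0.11, and -0.02 without the 4-week Trem2-/- library). With the block 1 was called, against 0.0834% of all genes. Plau and its receptor Plaur, which form plasmin at the cell surface, had -0.69 ± 1.06 and -0.89 ± 1.12. In complement, 7 of 11 genes were negative (median -0.11, changing sign in 3 of 18 other settings, from -0.28 without the 4-week to 0.12 without the 12-week Trem2-/- library). C1qa and C1qb, subunits of the recognition molecule C1q, had -0.11 ± 0.71 and -0.03 ± 0.48. Itgax, which is also a complement receptor chain, was the member furthest from 0.

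Cytokines and chemokines varied by gene. Of 31 tested, 23 were negative, against 49.8% of all genes, with a median of -0.37 and 0 called. At both times 5 lay below -1, against 0.936% of all genes. The median interaction was -0.08 without the 4-week Trem2-/- library, -0.07 without the 12-week WT library and -0.55 without the 12-week Trem2-/- library. The median response was 0.34 in Trem2-/- and 0.90 in WT. Il1b, the proinflammatory cytokine interleukin-1 beta, measured 9.47, 9.59 and 10.04 in Trem2-/- cells, against 9.51, 11.11 and 11.65 in WT cells (interaction -1.53 ± 0.55). Its relative Il1a had -0.02 ± 0.45 at a level near 12 in each library. Ptgs2, the inducible prostaglandin synthase, measured 6.81, 6.87 and 8.44 in Trem2-/- cells, against 7.23, 9.06 and 10.77 in WT cells (-1.84 ± 1.30). It was higher at 12 than at 4 weeks in both genotypes. Csf1, a ligand of the receptor on which microglia depend for survival, measured 8.24, 8.59 and 7.81 in Trem2-/- cells, against 8.75, 10.28 and 10.11 in WT cells (-1.48 ± 0.48). Cxcl14, a chemokine, had a response of -0.12 in Trem2-/- and 2.07 in WT (-2.19 ± 0.64). Ccl22, a chemokine that attracts regulatory T cells, had -2.49 ± 0.79, of which 1.41 was a control difference between single arrays near background.

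Several chemokines, singled out after their values were seen, had a cuprizone response in Trem2-/- cells that was larger than in WT cells or nearly as large. Ccl7, a monocyte attractant, measured 8.46, 10.56 and 10.36 in Trem2-/- cells, against 9.09, 10.73 and 10.40 in WT cells (interaction 0.52 ± 0.35). Ccl2, its close relative, had a response of 0.83 in Trem2-/- and 0.39 in WT (0.44 ± 0.34). Ccl8 had 1.99 in Trem2-/- and 0.89 in WT (1.10 ± 0.67). For these 3 genes the Trem2-/- control was the lower one, with Trem2-/- minus WT differences of -0.63, -0.50 and -1.23, and on cuprizone their levels were closer between genotypes than in the controls. Ccl5, a T cell attractant, measured 6.62, 8.61 and 8.79 in Trem2-/- cells, against 7.39, 9.29 and 10.57 in WT cells (-0.46 ± 1.56). Ccl12 had a response of 0.41 in both genotypes.

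Interferon-induced genes were mostly negative. Of 28 tested, 22 were negative, against 49.8% of all genes, with a median of -0.48 and 0 called. The median interaction was -0.26 without the 4-week WT library and -0.27 without the 12-week Trem2-/- library, with 18 of 28 negative in each. The median response was 0.16 in Trem2-/- and 0.89 in WT. The times differed in which genes led. Oas1a, a sensor of double-stranded RNA, measured 6.01, 5.68 and 5.67 in Trem2-/- cells, against 5.69, 7.30 and 6.45 in WT cells (-1.93 at 4 weeks and -1.10 at 12 weeks). Ifit1 measured 4.63, 4.76 and 5.29 in Trem2-/- cells, against 4.35, 5.44 and 7.12 in WT cells (-0.96 at 4 weeks and -2.11 at 12 weeks). At both times 2 of 28 lay below -1, against 0.936% of all genes. Cxcl10, a chemokine induced by interferon, had a response of 1.64 in Trem2-/- and 2.09 in WT (-0.45 ± 1.81). Ifi207 had 1.94 in Trem2-/- and 1.83 in WT (0.11 ± 0.40). Cxcl10 and Ifi207 were chosen after their values were seen.

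Antigen presentation genes held no call. The median of 11 MHC class II genes was 0.02 at 4 weeks and -0.43 at 12 weeks, with 7 negative interactions, and that of 15 class I and peptide loading genes was -0.18 at 4 weeks and 0.01 at 12 weeks. The difference between the times was not tested. Cd74, the invariant chain, measured 9.41, 9.32 and 8.68 in Trem2-/- cells, against 9.73, 10.29 and 10.18 in WT cells (-0.91 ± 0.40). H2-Aa measured 9.75, 10.001 and 8.58 in Trem2-/- cells, against 10.16, 10.39 and 10.16 in WT cells. The low value of H2-Aa thus lay in the single Trem2-/- library of 12 weeks. The class II median of -0.26 was 0.05 without that library, -0.44 without the 4-week Trem2-/- library and -0.16 without the 4-week WT library. For class I and peptide loading genes, 9 of 15 were negative (median -0.15, and -0.41 to -0.07 with a cuprizone library left out).

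Growth and energy genes had mostly negative values. Besides Igf1, Vegfa, the vascular growth factor, measured 5.69, 5.76 and 5.71 in Trem2-/- cells, against 6.08, 7.05 and 7.56 in WT cells (interaction -1.18 ± 0.39). The other 7 trophic factors tested lay between -0.22 (Tgfb1) and 0.36 (Vegfb), and 0 of 9 were called. Of the 9, 6 were negative (median -0.12). The trophic median was 0.003 without the 12-week WT library, with 4 of 9 negative, and -0.31 without the 4-week WT library. It was -0.02 with the library of conflicting labels taken as 4 weeks. Of 26 glycolysis and hypoxia genes 18 were negative (median -0.30), with Egln3 called with the block, against 0.0834% of all genes. Pgk1, phosphoglycerate kinase, measured 8.09, 8.29 and 8.58 in Trem2-/- cells, against 8.04, 9.09 and 9.40 in WT cells (-0.85 ± 0.43). Aldoa, aldolase, had a response of -0.12 in Trem2-/- and 0.81 in WT (-0.93 ± 0.42). Slc2a1, the glucose transporter GLUT1, had 0.05 in Trem2-/- and 0.98 in WT (-0.93 ± 0.74). Mitochondrial respiratory chain genes had smaller values in the same direction, 26 of 32 negative with a median of -0.19, and ribosomal protein genes too, 19 of 21 with a median of -0.16. Without the 4-week WT library 19 of 32 and 15 of 21 were negative, with medians of -0.13 and -0.07. Without the 12-week Trem2-/- library the medians were -0.11 and -0.03, and without the 4-week one the ribosomal median was -0.26. No gene of these 2 lists was called or lay beyond 1 at both times.

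Cell cycle genes were dim, and 18 of 38 on the array were tested. Of these 15 were negative (median -0.21, 0 called, and -0.41 without the 4-week Trem2-/- or -0.44 without the 12-week WT library). Cdk1, the mitotic kinase, measured 5.58, 5.53 and 5.71 in Trem2-/- cells, against 5.18, 6.41 and 6.23 in WT cells (interaction -1.10 ± 0.42). Mcm7, a subunit of the replicative helicase, had -1.44 ± 0.36, and its Trem2-/- control was the higher by 1.26. On cuprizone Mcm7 stood at 5.55 and 5.23 in Trem2-/- cells, against 5.60 and 5.55 in WT cells. Most of its interaction therefore came from the control pair.

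Metal and stress genes varied more by gene than by list. Metallothionein Mt2, which binds zinc and copper, measured 8.08, 8.63 and 9.67 in Trem2-/- cells, against 7.99, 9.95 and 11.002 in WT cells (interaction -1.42 ± 0.72). The copper exporter Atp7a and the copper importer Slc31a1 each had a response of 0.35 to 0.38 in both genotypes and interactions of 0.00 ± 0.36 and 0.00 ± 0.57. Of 13 copper genes 7 were negative, with a median of 0.00 that ran from -0.12 to 0.10 in other settings. In the amino acid stress list 10 of 21 were negative (median 0.01, and -0.16 without the 4-week WT library). Asns, asparagine synthetase, measured 4.35, 5.04 and 4.11 in Trem2-/- cells, against 4.54, 5.43 and 6.92 in WT cells, so that its -1.41 ± 0.83 came from 12 weeks (-2.62, against -0.20 at 4 weeks). Of 25 immediate early genes, which respond to cell handling within minutes, 11 were negative (median 0.06, and 0.02 to 0.14 in other settings), and Dusp1 had 0.00 ± 0.30.

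The positive side held no call with or without the block. The 10 most positive values by the naming rule were those of Ttr, H3c4, Klrd1, Carnmt1, Slc15a2, Bank1, Atxn1, Myo18b, D430042O09Rik and Fam71a. Ttr, transthyretin, which the choroid plexus makes in large amounts, measured 5.09, 9.58 and 5.70 in Trem2-/- cells, against 6.15, 4.14 and 5.53 in WT cells. In the recovery libraries of 4 and 12 weeks Ttr stood at 9.87 and 6.88 in Trem2-/- cells, against 10.95 and 5.07 in WT cells. Its high values were thus not confined to Trem2-/- cells. Its interaction of 3.86 ± 3.33 was 6.496 at 4 weeks and 1.22 at 12 weeks, and it was 1.92 without the 4-week Trem2-/- library. Bank1, a scaffold protein known from B cells, measured 8.76, 8.30 and 8.73 in Trem2-/- cells, against 8.88, 7.57 and 6.94 in WT cells (1.39 ± 0.47, adjusted p = 1). Klrd1, the NK receptor chain CD94, measured 7.45, 7.73 and 7.36 in Trem2-/- cells, against 7.16, 6.59 and 4.76 in WT cells (1.58 ± 0.92). Myo18b, an unconventional myosin, measured 9.85, 9.29 and 8.72 in Trem2-/- cells, against 9.97, 8.13 and 7.39 in WT cells (1.36 ± 1.05). In these 3 genes the controls were within 0.29 of each other and the WT libraries on cuprizone were the low ones. Slc15a2, H3c4, Carnmt1 and Fam71a had Trem2-/- minus WT control differences of -1.80 to -1.14. For Carnmt1, Atxn1 and D430042O09Rik other probes of the gene gave values down to -0.29, 0.22 and -0.46.

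Median levels of border macrophage markers were highest in the 4-week libraries of both genotypes, and those of neutrophil and monocyte markers were lowest in the 12-week libraries of both. Across the list of 16 border macrophage markers, genes of macrophages at the meninges and vessels, the median level was 5.42, 7.22 and 5.99 in the Trem2-/- control, 4-week and 12-week libraries, against 6.03, 7.33 and 6.03 in WT. Of its 14 tested members 10 had a positive interaction (median 0.21), and the median Trem2-/- minus WT control difference was -0.38. The sign of that median interaction changed in 3 of 18 other settings. It was 0.88 without the 4-week WT library and 0.61 without the 12-week Trem2-/- library, against -0.16 without the 4-week Trem2-/- library, -0.39 without the 12-week WT library and -0.33 with the library of conflicting labels taken as 4 weeks. Cd209f and F13a1 had 1.16 ± 1.33 and 1.07 ± 1.17. The other 4 tested members were negative, down to -1.54 for Colec12, the member furthest from 0. Colec12 measured 5.44, 5.71 and 5.60 in Trem2-/- cells, against 4.75, 6.69 and 6.34 in WT cells. Ms4a7, also negative, measured 5.83, 7.41 and 6.96 in Trem2-/- cells, against 6.17, 8.46 and 8.23 in WT cells. Ccl7, Ccl8 and Ccl2, above, also had a lower Trem2-/- control, and the markers' part in their values was not tested. Of 13 neutrophil markers the median level was 7.61, 7.28 and 4.80 in Trem2-/- cells, against 7.76, 8.03 and 4.68 in WT cells. Of 10 tested, 7 had a positive interaction, with a median of 0.40 that ran from -1.46 to 1.31 and changed sign in 3 of 18 other settings. Without the 4-week WT library it was 1.31 and without the 12-week Trem2-/- library 0.94, against -0.83 without the 4-week Trem2-/- library and -1.38 without the 12-week WT library. Of 10 monocyte markers the median level was 5.69, 5.60 and 4.48 in Trem2-/- cells, against 5.73, 6.20 and 4.84 in WT cells. Of 8 tested, 6 had negative interactions (median -0.49), led by Fn1 (-2.38 ± 0.90). That median changed sign in 2 of 18 other settings, with 0.73 and 3 of 8 negative without the 4-week WT library and 0.21 without the 12-week Trem2-/- library, against -1.35 without the 4-week Trem2-/- library and -1.40 without the 12-week WT library. Single monocyte markers differed in direction: Ccr2, a chemokine receptor of monocytes, measured 6.21 and 5.08 on cuprizone in Trem2-/- cells, against 5.975 and 4.34 in WT cells. The part of the neutrophil and monocyte markers in the interactions above was not tested. Markers of oligodendrocytes, neurons, endothelium, lymphocytes (T, NK and B cells) and erythroid cells had medians of 3.81 to 5.02 in the 6 libraries, below the table's median, and no marker had a value of 0. Single members stood higher, among them Klrd1, above, Eng (7.66 to 8.45), Cd79b (6.34 to 7.39) and Cnp (6.78 to 7.16). Of 4 endothelial markers tested 2 had a negative and 2 a positive interaction. The lowest was Flt1 at -1.86 (not called). Flt1 measured 4.55, 4.39 and 4.30 in Trem2-/- cells, against 4.33, 6.20 and 5.77 in WT cells. Astrocyte markers had medians of 5.03 to 5.38. In bulk samples of this kind, fewer cells of a type and less RNA per cell cannot be told apart.

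**Figure D5:**
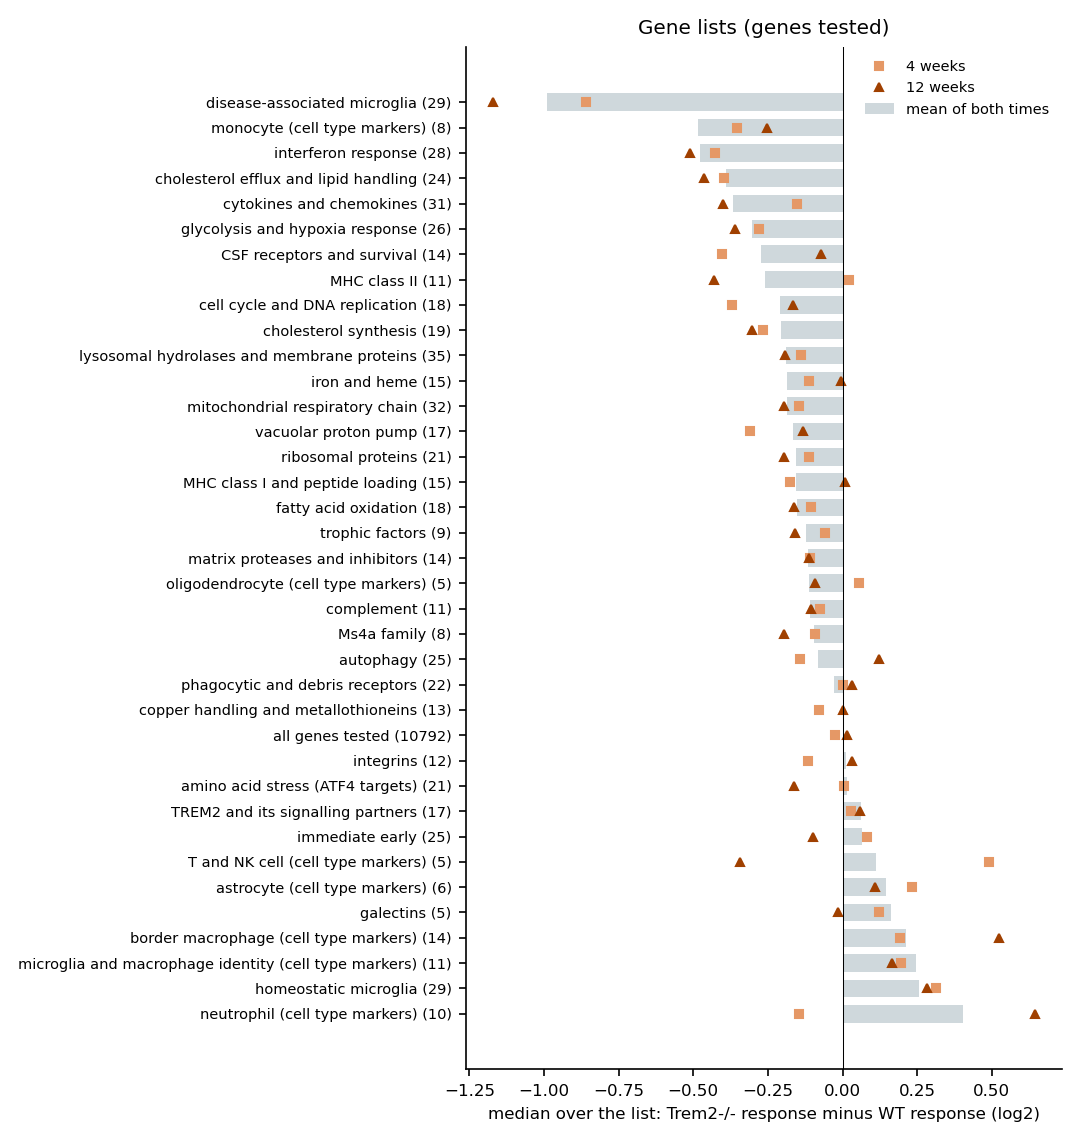
Median interaction (log2, x axis) of each gene list with at least 5 tested members (number in brackets), as bars for the mean of both feeding times, squares for 4 weeks and triangles for 12 weeks. The disease-associated list lies furthest from 0 at -0.99, all genes tested lie at 0.00 and the homeostatic list at 0.25. The squares and triangles of several lists lie on opposite sides of 0, among them the neutrophil (-0.15 at 4 weeks and 0.64 at 12 weeks) and the T and NK cell markers (0.49 at 4 weeks and -0.34 at 12 weeks).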

How the data were processed

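The values are microarray intensity on a linear scale, as the authors deposited them. Their summarization and normalization steps were not given in the sources used here. Column medians ran from 37.6 to 39.3, so log2 was taken with no further scaling. Of 24567 probes, 21259 named 1 gene in the platform's annotation, and the brightest probe stood for each of 19749 genes (888 had several). Genes exceeding the table's median (5.27 on the log2 scale, 38.5 linear) on at least 2 of 10 arrays were tested, 10792 in all. Because dim genes fail this filter unless they are high somewhere, counts over a list's tested members describe those members only. Each count of negative members is to be read beside the 49.8% of all genes tested. Group means (6 groups, 4 residual degrees of freedom) were fitted with limma 3.58.1 in R 4.3.3 (lmFit, eBayes, Benjamini-Hochberg adjustment over the genes that passed the filter, threshold 0.05), and ± is the standard error from this fit. All adjusted p-values are from limma. An alternative fit added titled feeding time as a block (3 residual degrees of freedom), with the controls beside the 4-week libraries of their run. Feeding time pairs the libraries: the 12-minus-4-week differences of the 4 fed groups correlated at 0.523 to 0.631 over 10792 genes (6 pairs of groups). The labels name no separate animals, and no group holds 2 libraries of the same titled feeding time. The p-values therefore measure the spread between feeding times and runs within a group, not between replicates of a condition. With the block they measure what is left after the shared part. Either spread may be partly technical, and the small number of arrays limits the precision. Only the fit without the block was run on simulated data, with noise independent between libraries, unlike the pairing above. The blocked fit was not simulated.

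Named genes were those called in either fit, the 10 most negative and 10 most positive values with the same sign at both times and a level over 1 above the table's median in some library, up to 5 furthest from and 2 nearest to 0 in each of 41 gene lists, Trem2 and the defining markers. Others are said to be chosen after their values were seen. The members and the lists (865 entries, 785 on the array, 634 tested) were chosen with earlier results of these data known. Probe coordinates of the array were not used here, and promoter windows came from the RefSeq table. Leaving out a cuprizone library leaves its genotype with 1 feeding time.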

Additional observations from a re-analysis of the deposited data

Results flagged for a closer look

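The interaction of Gpnmb, -4.57, is listed because the effect of cuprizone differed between the genotypes by the test of the difference itself (limma adjusted p = 0.0451). It was lower in Trem2-/- cells at both feeding times, by -4.05 and -3.46 against WT, while the Trem2-/- control was the higher one by 0.81. The 3 Trem2-/- libraries and the WT control lie near background, and the part of background in the size of the value was not tested.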

How the results depend on the processing

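The main count of 1 gene became 0 with columns centred on a common median, with log2 of the intensity plus 32, with the control and cuprizone libraries alone, and against recovery in place of control, which was chosen after seeing the data. It was also 0 when all probes were tested together in place of 1 per gene. The count became 9 with the replicate block of feeding time. Leaving out 1 library gave 0 to 1. The blocked count of 9, whose alternatives were also chosen after seeing the data, was 25 with log2 of the intensity plus 32, and 1 to 26 with a library left out: 1 without the 4-week WT cuprizone library or either Trem2-/- cuprizone library, 26 without either WT recovery library, 5 without either Trem2-/- recovery library. A fit that leaves out a cuprizone or recovery library keeps 1 array in that group, assumed to vary like the others, and neither control could be left out. Leaving out either recovery library of a genotype gives the same fit. Counts over the fits that leave out a library therefore include repeats. The cause of these changes was not tested. The 23 named genes other than Trem2 kept their sign in every alternative run. These genes also had the same sign at both feeding times, most of them by the naming rule. Their stable sign was thus nearly fixed by the choice and is no separate support. For Gpnmb the value ran from -4.89 to -2.96 (adjusted p 0.000632 to 0.401, called in 8 of 18). Medians ranged from -1.34 to -0.70 for disease-associated genes, from -0.64 to -0.30 for lipid handling, from -0.70 to -0.26 for interferon genes and from -0.55 to -0.06 for cytokines over 18 alternatives. The block of titled feeding time and leaving out a recovery library cannot move a value. Counts out of 18 thus include settings that could not change a sign. Scaling moved the median of all genes to between -0.01 and 0.02.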

Other observations

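Probes that the platform's annotation pairs with several genes or with none stayed out of the gene tests. Of 686 such several-gene probes above the filter 4 had an interaction below -2, and of 966 without a listed gene 2 did, with lowest values of -3.27 and -4.78. None was called when all probes were tested together, with or without the block.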
